A study of Mus musculus with 22 samples.

Results

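The 10 transcription factors described here, which serve as markers of hypothalamic nuclei and regions, were followed across 22 whole-transcript arrays of mouse hypothalamus. They were taken by name, as the probe sets whose platform symbol was Nr5a1, Fezf1, Sim1, Otp, Tbx3, Isl1, Nkx2-1, Six3, Six6 or Lhx6, and they make up 10 of the 18704 genes with a probe set of their own. Each of the 10 had exactly 1 probe set, and all 10 passed the filter on level (above the median of its array in at least 3 arrays) that left 9880 genes for testing. The animals were male C57BL/6J mice of lean phenotype, 8 weeks old, which had eaten normal chow for 2 weeks. There were 3 groups that received intraperitoneal celastrol, a plant triterpenoid, for 6 h (4 arrays), 1 day (3 arrays) or 4 days (3 arrays), and 3 groups received the solvent dimethyl sulfoxide (DMSO), with 4 arrays at each of the same times. Per the labels the 6 h animals received 250 µg of celastrol per kg. For 1 and 4 days the labels state 100 µl with 25 µl of DMSO per day and no dose per body weight, and the solvent is shared by all groups. Each array is labelled as a biological replicate. The sources used here do not tell whether an array held 1 animal or a pool.

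The hypothalamus is built of small nuclei that control feeding, water balance, daily rhythm and the pituitary, and each nucleus keeps its own set of transcription factors from embryonic life into the adult neuron. Nr5a1 (steroidogenic factor 1) and Fezf1 mark the ventromedial nucleus, Sim1 and Otp the paraventricular nucleus, Tbx3, Isl1 and Nkx2-1 the arcuate nucleus and neighbouring tuberal region, and Six3 and Six6 the suprachiasmatic region, while Lhx6 marks inhibitory neurons of the dorsomedial area and zona incerta. Because a nucleus can be cut more or less completely when the hypothalamus is removed, the levels of such genes and their spread within a group were read as a measure of how alike the dissections were. In these bulk samples, fewer cells of a nucleus and less RNA per cell cannot be told apart.

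All values are log2 intensities made with RMA (robust multi-array average), so a level is a log2 intensity and a change is a difference between 2 such levels. Array medians lay between 8.58 and 8.66. The hypothalamic peptide genes Pmch, Hcrt, Avp, Oxt, Trh and Sst, which identify the tissue, were above the median of their array in all 22 arrays. Of 20 listed peptide genes on the array, Crh, Gnrh1, Kiss1 and Prok2 were above it in none. The mean level of 9 thalamus markers set 5 arrays apart, at 10.40 to 10.58 against at most 10.28 in the other 17. These were celastrol 6 h replicates 2 and 4, celastrol 4 days replicate 1 and DMSO 6 h replicates 1 and 2. Prkcd, a protein kinase abundant in thalamic relay neurons and itself in that list, reached 10.71 among these 5 arrays and at most 9.38 on the others. Slc17a6, a glutamate transporter gene of the same list, did not separate them. It lay at 12.08 to 12.25 on the 5 arrays and 12.06 to 12.29 on the others. The pituitary hormone gene Gh also varied widely, between 7.52 and 11.48. None of the 5 belongs to a 1 day group. Without them the change of a member at 6 h lay between -0.19 (Lhx6) and 0.19 (Fezf1) and at 4 days between -0.05 (Lhx6) and 0.11 (Six6), and the correlations over the remaining 17 arrays are given with the others.

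The promoters of 5 genes are shown here, 3 that varied together and a separate pair. Each runs from 250 bases before the RefSeq transcription start to 50 after it. They are given 5′ to 3′ on the strand of the gene, in build GRCm38.p6. Nkx2-1, Isl1 and Six6 form 3 of the pairs in the results. Sim1 and Otp are the paraventricular pair, and neither passed with any of those 3 genes. Tbx3 and Nr5a1 are not in the promoter table. Capitals mark CCAAT or its reverse complement ATTGG, the CCAAT box bound by NF-Y. The Nkx2-1 window spans chr12:56536859-56537158 on the minus strand, the Isl1 window chr13:116309639-116309938 on the minus strand and the Six6 window chr12:72939632-72939931 on the plus strand. The Sim1 window spans chr10:50895401-50895700 and the Otp window chr13:94875386-94875685, both on the plus strand.
Nkx2-1: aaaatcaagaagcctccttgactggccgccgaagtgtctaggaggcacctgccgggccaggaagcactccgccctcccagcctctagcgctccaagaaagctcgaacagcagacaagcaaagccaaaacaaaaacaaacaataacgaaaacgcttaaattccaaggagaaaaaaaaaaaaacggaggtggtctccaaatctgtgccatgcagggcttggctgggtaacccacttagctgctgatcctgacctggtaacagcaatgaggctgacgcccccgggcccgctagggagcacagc
Isl1: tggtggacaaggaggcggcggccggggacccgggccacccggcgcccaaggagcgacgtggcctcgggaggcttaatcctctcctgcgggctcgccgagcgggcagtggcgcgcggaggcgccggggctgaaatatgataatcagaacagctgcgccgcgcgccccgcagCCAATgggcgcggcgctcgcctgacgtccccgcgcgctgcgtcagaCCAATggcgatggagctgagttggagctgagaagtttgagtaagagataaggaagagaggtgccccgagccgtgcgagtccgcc
Six6: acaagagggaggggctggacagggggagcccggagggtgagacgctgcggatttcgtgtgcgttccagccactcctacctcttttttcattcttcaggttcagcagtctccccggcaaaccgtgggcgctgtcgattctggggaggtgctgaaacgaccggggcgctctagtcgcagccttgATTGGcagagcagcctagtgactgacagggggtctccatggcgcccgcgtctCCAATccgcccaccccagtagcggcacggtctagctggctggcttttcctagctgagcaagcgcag
Sim1: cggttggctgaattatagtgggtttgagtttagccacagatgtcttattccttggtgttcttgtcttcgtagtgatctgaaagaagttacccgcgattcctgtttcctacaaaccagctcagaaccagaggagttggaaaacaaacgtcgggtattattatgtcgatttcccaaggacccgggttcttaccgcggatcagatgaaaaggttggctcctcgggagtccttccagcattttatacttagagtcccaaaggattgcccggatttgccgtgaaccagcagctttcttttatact
Otp: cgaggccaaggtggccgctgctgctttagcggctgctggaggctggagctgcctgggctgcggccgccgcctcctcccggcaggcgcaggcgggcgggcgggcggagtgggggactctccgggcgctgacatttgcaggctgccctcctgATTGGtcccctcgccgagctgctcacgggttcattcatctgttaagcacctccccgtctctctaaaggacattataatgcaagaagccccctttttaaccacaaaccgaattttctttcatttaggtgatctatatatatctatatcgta

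RefSeq's promoter table held 8 of the 10 genes, with 10 promoters in all. CCAAT on either strand stood in 7 of these 10 promoters, from 6 of the 8 genes, against 37.4% of 32851 mouse promoters of the same length. Among the sequences printed, Isl1 and Six6 held it 2 times each and Otp 1 time, and the Nkx2-1 and Sim1 windows held none. TATAAA, the letters of the TATA box, stood on either strand in 2 of the 10 promoters, the one of Sim1 and one of Lhx6, against 13.6% of all promoters. In these promoters every match was the reverse complement, TTTATA, on the strand of the gene. TAATTA, the core bound by homeodomain proteins such as Otp and Lhx6, stood in 0 of the 10 and in 5.29% of all promoters, and TTCNNNGAA, the STAT motif, in 0 of the 10 and in 8.30%. All motifs were searched on both strands, and no CCAAT match overlapped a TATAAA match. A match is only a description of the letters in this window. Isl1 and Six6, which varied together, both held CCAAT, but so did Lhx6, which passed with no other member. Fezf1 and Six3 also held it. Nkx2-1, the gene with the most partners in the results, held none of the 4 motifs. Of the pair Sim1 and Otp, only Otp held CCAAT.

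Celastrol changed 0 of the 10 nucleus transcription factors at 6 h, at 1 day, at 4 days or on the mean of the 3 times (limma, adjusted p under 0.05 over 9880 genes). The lowest adjusted p of a member was 0.895 at 6 h, 0.733 at 1 day, 1.00 at 4 days and 1.00 on the mean. Without adjustment 0 of the 10 had a p under 0.05 in any of these 4 comparisons. Among all genes tested, celastrol changed 0.0% at 6 h, 0.0% at 1 day, 0.0506% (5 genes) at 4 days and 0.0607% (6 genes) on the mean, so a count of 0 among 10 members is close to the background. At an unadjusted p under 0.05 the background was 5.11%, 6.66%, 3.66% and 4.0% of genes. The plot of changes with their intervals shows all 40 intervals crossing 0.

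**Figure D1:**
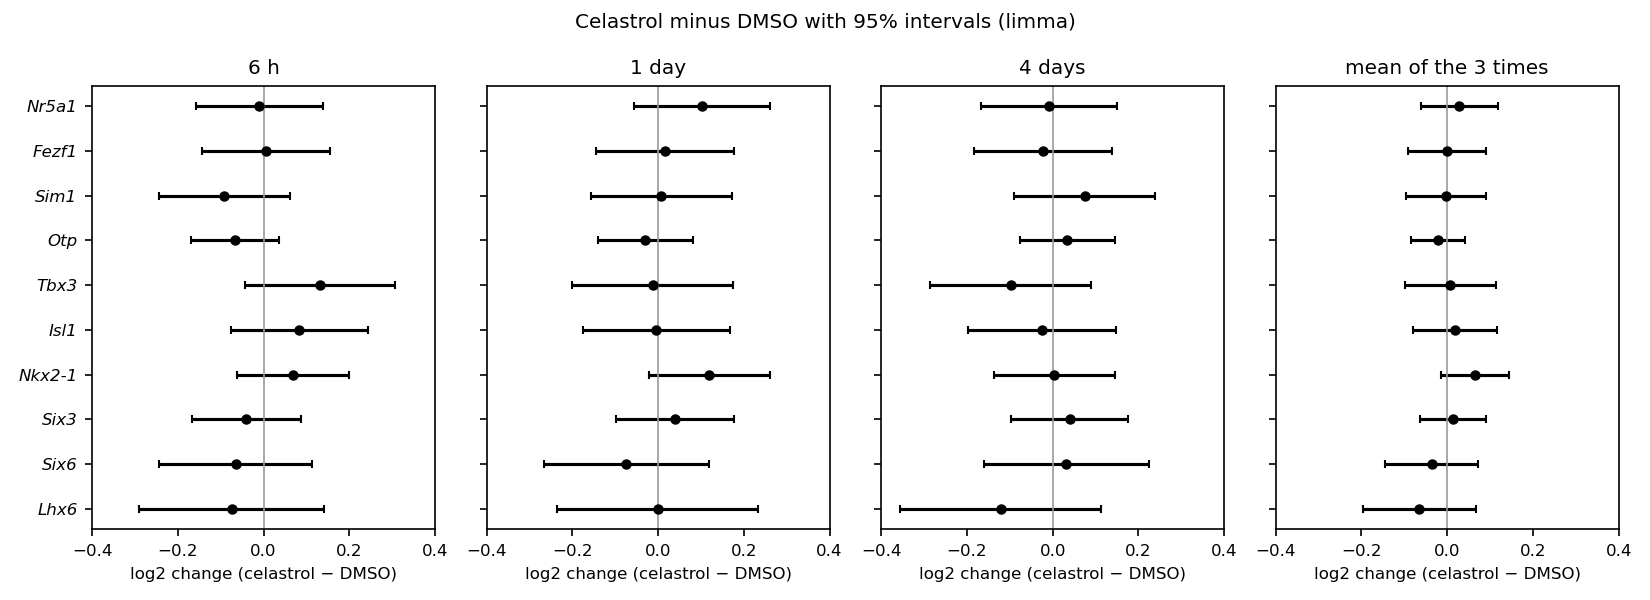
Log2 change of each transcription factor, celastrol minus DMSO (x axis, log2 units), at 6 h, at 1 day, at 4 days and on the mean of the 3 times; points are limma estimates and bars their 95% intervals. Every interval includes 0, and the estimates lie between -0.12 (Lhx6 at 4 days) and 0.13 (Tbx3 at 6 h).

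The ventromedial markers came out flat. Nr5a1 (probe set 10482237), the nuclear receptor needed for the ventromedial nucleus to form properly, had levels of 8.67, 8.65, 8.83 and 8.59 in celastrol 6 h arrays, against 8.69, 8.49, 8.74 and 8.85 in DMSO 6 h arrays. At 1 day it had 8.66, 8.92 and 8.72 in celastrol arrays, against 8.69, 8.55, 8.70 and 8.71 in DMSO arrays. At 4 days it had 8.52, 8.63 and 8.59 in celastrol arrays, against 8.63, 8.47, 8.71 and 8.55 in DMSO arrays. The groups overlapped at each time, and over all genes they were apart for 2.76%, 6.17% and 6.33% at 6 h, 1 day and 4 days. The changes were -0.01 (95% interval -0.16 to 0.14), 0.10 (-0.06 to 0.26) and -0.01 (-0.17 to 0.15) at 6 h, 1 day and 4 days. Fezf1 (probe set 10543362), a zinc finger repressor that acts in the same developing nucleus, averaged 10.75 ± 0.15 in celastrol 6 h arrays and 10.75 ± 0.08 in DMSO 6 h arrays (SD, n = 4 each). Its changes at the 3 times were 0.01, 0.02 and -0.02. Without the 5 arrays high in thalamus markers, which leaves 2 arrays of each treatment at 6 h, the Fezf1 change at that time was 0.19 (adjusted p = 1.00).

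The paraventricular markers had estimates below 0 at 6 h and above 0 at 4 days, each with an interval across 0. Sim1 (probe set 10363056), a bHLH-PAS factor needed for the neurons that make oxytocin, vasopressin and thyrotropin-releasing hormone, had levels of 9.65, 9.38, 9.55 and 9.23 in celastrol 6 h arrays, against 9.55, 9.48, 9.59 and 9.55 in DMSO 6 h arrays. Celastrol replicates 2 and 4, both high in thalamus markers, lay below all 4 DMSO arrays, while replicate 1 was the highest of the 8. The change at 6 h was -0.09 (95% interval -0.24 to 0.06, adjusted p = 0.919), and it was 0.03 without the 5 arrays high in thalamus markers. At 4 days Sim1 had 9.46, 9.63 and 9.46 in celastrol arrays, against 9.44, 9.37, 9.55 and 9.39 in DMSO arrays, a change of 0.08 (-0.09 to 0.24). Otp (probe set 10406714), a homeodomain factor required for the same neurons, averaged 9.89 ± 0.10 in celastrol and 9.96 ± 0.07 in DMSO arrays at 6 h (SD, n = 4 each), a change of -0.07 (-0.17 to 0.04). At 1 day its 3 celastrol arrays, at 9.87, 9.92 and 9.89, lay just below the DMSO mean of 9.92 but inside the DMSO range of 9.85 to 9.97.

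Among the arcuate markers, Nkx2-1 (probe set 10400474), the homeodomain factor that specifies the tuberal hypothalamus, was the only member whose groups were apart at any time. At 1 day its levels were 9.77, 9.84 and 9.79 in celastrol arrays, against 9.67, 9.61, 9.68 and 9.77 in DMSO arrays. All 3 celastrol arrays lay above the 4 DMSO arrays, though the lowest celastrol and the highest DMSO array were both at 9.77 to 2 decimals. This was 1 of the 10 members, and groups were apart in either direction for 6.17% of all genes at that time. The change was 0.12 (SE 0.07, 95% interval -0.02 to 0.26, adjusted p = 0.733), and the exact two-sided permutation p was 0.0571, where the smallest possible is 0.0286. Most thalamus markers had estimates below 0 at the same time: the list mean was at most 10.07 in celastrol 1 day arrays, against 10.05 to 10.28 in DMSO 1 day arrays, and 7 of 8 tested markers had a change below 0 (median -0.10, lowest adjusted p 0.705). Their part in the Nkx2-1 value was not tested. At 6 h Nkx2-1 had 9.81, 9.53, 9.87 and 9.74 in celastrol arrays, against 9.66, 9.59, 9.75 and 9.68 in DMSO arrays. At 4 days it had 9.48, 9.57 and 9.71 in celastrol arrays, against 9.66, 9.46, 9.64 and 9.57 in DMSO arrays. The groups overlapped at both of these times, with changes of 0.07 and 0.00 (0.13 and 0.06 without the 5 arrays high in thalamus markers), and over the 3 times 7 of 10 celastrol arrays exceeded the time-matched DMSO mean (mean change 0.06, interval -0.02 to 0.14).

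Tbx3 (probe set 10525016), a T-box factor of arcuate neurons and of the ependymal tanycytes beside them, had the largest early estimate. Its levels at 6 h were 9.13, 8.84, 9.19 and 9.01 in celastrol arrays, against 8.77, 8.75, 9.05 and 9.08 in DMSO arrays. The DMSO arrays fell into a low pair, replicates 1 and 2, both high in thalamus markers, and a high pair inside the celastrol range. The change was 0.13 (SE 0.08, 95% interval -0.04 to 0.31, adjusted p = 0.895, exact permutation p = 0.229), it was 0.10 without the 5 arrays high in thalamus markers, and at 4 days it was -0.10 (-0.29 to 0.09). Isl1 (probe set 10412335), a LIM homeodomain factor of the neurons that make melanocortin and growth hormone-releasing hormone, had changes of 0.08, -0.00 and -0.03 at the 3 times, with overlapping groups at each.

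The suprachiasmatic factors and Lhx6 also overlapped at each time. Six3 (probe set 10447288) and Six6 (probe set 10396367), sine oculis homeobox genes of the eye field and anterior hypothalamus, had estimates between -0.07 and 0.04 at the 3 times. Six6 at 1 day had 8.71, 8.67 and 8.72 in celastrol arrays, against 8.83, 8.78, 8.65 and 8.83 in DMSO arrays, so 3 of 3 celastrol arrays lay below the DMSO mean but above the lowest DMSO array. At 6 h the Six6 change was -0.06, and 0.03 without the 5 arrays high in thalamus markers. Six6 was above the median of its array in 17 of 22 arrays. Lhx6 (probe set 10482095), a LIM homeodomain factor of inhibitory neurons, was above the median of its array in 6 of 22 arrays. At 4 days it had 8.21, 8.21 and 8.63 in celastrol arrays, against 8.37, 8.63, 8.50 and 8.40 in DMSO arrays. The 2 lowest of these were the lowest 2 of all 22 arrays and the other one matched the highest DMSO array, and the change of -0.12 had an interval from -0.35 to 0.11 and was -0.05 without celastrol replicate 1, the array high in thalamus markers.

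Read as a group, the members did not lean one way. Of the 10, 4 were above 0 at 6 h, 5 at 1 day, 5 at 4 days and 5 on the mean, against 65.4%, 41.2%, 56.4% and 56.3% of all genes. Their median change was -0.02, 0.00, -0.00 and 0.00, beside 0.02, -0.01, 0.01 and 0.00 over all genes. The interaction test, of whether the celastrol change differed between times, called 0 of the 10 in 3 comparisons, as it called 0.0% of genes in each. At an unadjusted p under 0.05 there were 0 of the 10, beside 8.27% of genes for 1 day minus 6 h, 3.38% for 4 days minus 6 h and 6.0% for 4 days minus 1 day. Its largest estimate was for Tbx3, whose change at 4 days lay 0.23 below that at 6 h (difference -0.23, interval -0.49 to 0.03, adjusted p = 0.997). These comparisons share arrays, since each uses the DMSO arrays of its 2 times.

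**Figure D2:**
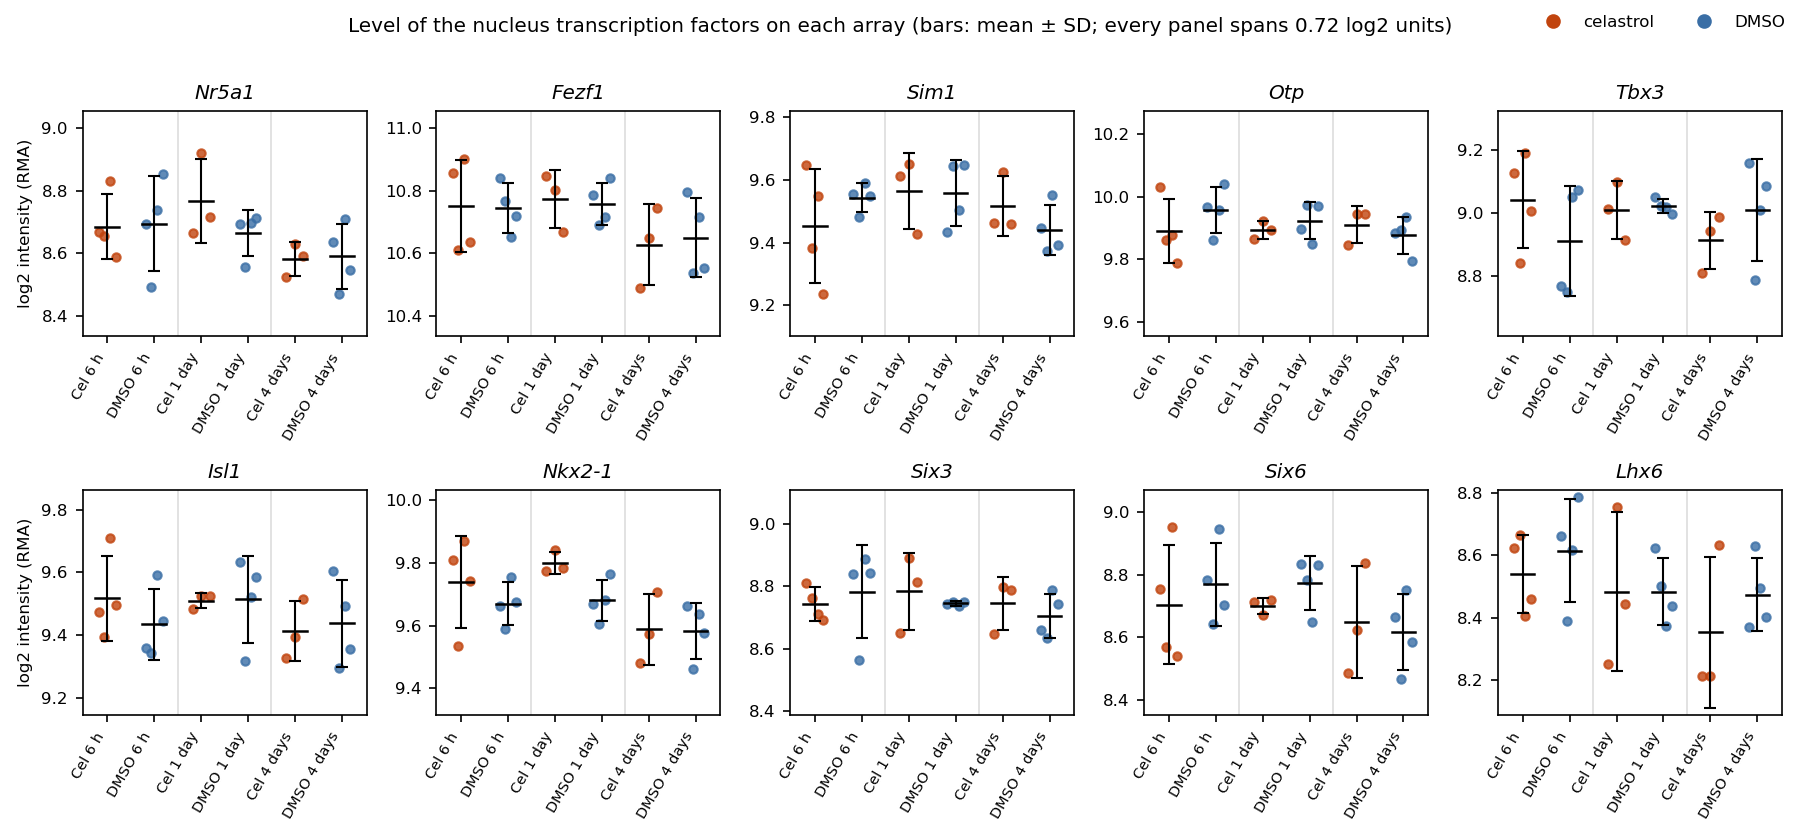
Log2 intensity (y axis, RMA) of the 10 transcription factors on each of the 22 arrays, celastrol beside DMSO at 6 h, 1 day and 4 days; points are arrays, and bars are group means with their SD (3 or 4 arrays). The groups overlap in every panel and time except Nkx2-1 at 1 day, where the celastrol arrays (9.77 to 9.84) lie just above DMSO (9.61 to 9.77).

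The 6 groups were ordered by mean level for each gene, as a description with no test. Neighbours in that order differed by less than the larger of their 2 SDs except for Tbx3, where celastrol 1 day (9.01 ± 0.09, n = 3) stood next above celastrol 4 days (8.91 ± 0.09, n = 3). The highest group was celastrol 1 day for Nr5a1, Fezf1, Sim1, Nkx2-1 and Six3, celastrol 6 h for Tbx3 and Isl1, DMSO 1 day for Six6, and DMSO 6 h for Otp and Lhx6. The lowest group was DMSO 4 days for Sim1, Otp, Nkx2-1, Six3 and Six6, celastrol 4 days for Nr5a1, Fezf1, Isl1 and Lhx6, and DMSO 6 h for Tbx3. From the highest to the lowest group the means differed least for Six3, by 0.08, and most for Lhx6, by 0.26. Nkx2-1 had 9.80 ± 0.04 in celastrol 1 day arrays (n = 3), its highest group, and 9.58 ± 0.09 in DMSO 4 days arrays (n = 4), its lowest, so these ends of the order lay farther apart than either SD. Levels of different genes are not set against each other, since each probe set has its own brightness.

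In the vehicle arrays alone the levels at 4 days lay mostly below those of the earlier times, within the spread. DMSO 4 days lay below DMSO 1 day for 10 of 10 members (median change -0.08), where 49.2% of all genes lay above, and below DMSO 6 h for 8 of 10 (median -0.09), where 66.1% of all genes lay above. Six6 had the largest of these differences, with levels of 8.66, 8.47, 8.75 and 8.58 in DMSO 4 days arrays, against 8.83, 8.78, 8.65 and 8.83 in DMSO 1 day arrays. The difference was -0.16 (95% interval -0.34 to 0.02, adjusted p = 0.394), and against DMSO 6 h it was -0.15 (adjusted p = 0.398). None of the 10 passed in any of the 3 comparisons of DMSO times, where 0.0% (1 day minus 6 h), 0.253% (4 days minus 6 h) and 0.152% (4 days minus 1 day) of all genes did. At an unadjusted p under 0.05 there were again 0 of the 10, beside 14.1%, 15.3% and 14.7% of genes. Tissue markers also differed between these times in their estimates. The pituitary list lay lower at 4 days for 4 of 4 tested genes against 1 day (median change -0.35) and 4 of 4 against 6 h (median -0.84). The thalamus list lay lower for 5 of 8 (median -0.03) and 8 of 8 (median -0.13), and DMSO 6 h holds 2 of the 5 arrays high in thalamus markers. Of 16 peptide genes, 10 and 11 lay lower (medians -0.09 and -0.05), and of 18 other hypothalamic transcription factors, 8 and 9. None of these genes passed. Of 8 striatum markers, 4 lay lower in each comparison (medians -0.03 and 0.01). In that list 1 gene passed, lower at 4 days than at 1 day (limma adjusted p = 0.0213). The part of these lists in the members' levels was not tested. The members varied together, as given next, so their 10 directions are not 10 separate observations.

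Within groups the factors were more variable than most genes. The pooled SD of a member ran between 0.0692 for Otp and 0.168 for Lhx6, with a median of 0.112, against a median of 0.0758 and quartiles of 0.0606 and 0.0939 over all 9880 genes. Of the 10, 8 lay above that upper quartile, led by Lhx6 at percentile 98.1, Six6 at 95.4 and Tbx3 at 94.7, and Otp, at 38.7, was the only one below the median. Single groups differed more: the SD of Six3 was 0.00702 in DMSO 1 day and 0.147 in DMSO 6 h, and that of Tbx3 0.0218 in DMSO 1 day and 0.176 in DMSO 6 h. Without the 5 arrays high in thalamus markers the median SD of the members was 0.0961. Differences in dissection, in the animals and in the hybridisation all enter this spread and cannot be told apart.

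On several arrays most of the factors lay on the same side of their group mean. On celastrol 4 days replicate 1, 10 of the 10 members lay below their group mean, by 0.10 on average. The same was so for 9 on celastrol 6 h replicate 4, 8 on celastrol 6 h replicate 2, 9 on DMSO 6 h replicate 2 and 8 on DMSO 4 days replicates 2 and 4. Other arrays were high for nearly all: 9 of the 10 lay above the group mean on celastrol 1 day replicate 2, celastrol 4 days replicate 3, DMSO 6 h replicate 3 and DMSO 4 days replicate 3. The share of all genes on each side was not counted, and within a group a low array places the others higher. Array medians differed as well, with 8.66 on celastrol 4 days replicate 3, against 8.61 and 8.62 in its group. DMSO 4 days replicate 4, with 8 members below, had the highest median of its group, 8.62. Of the 5 arrays high in thalamus markers, 4 were among those with 8 or more members below their mean, and on the other one, DMSO 6 h replicate 1, 6 of 10 lay above.

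To describe this, each array's deviation from its group mean was correlated between members over the 22 arrays. Of the 45 pairs, 44 had a Pearson r above 0 (56.9% of all 48802260 pairs of tested genes did), and the median r was 0.43, against about 0.05 over all pairs. An r of at least 0.5 was reached by 19 of 45 pairs (42.2%), beside 6.75% of all pairs, and an r of at least 0.6 by 13 (28.9%), beside 2.74%. All pairs of tested genes were used as they are, not matched on level or spread. At an adjusted p under 0.05 over the 45 pairs (100000 permutations within groups, two-sided), 12 pairs passed, all with a positive r between 0.58 and 0.80. By Spearman's rho 14 passed. With 1 array left out the count was 7 to 13 (7 without DMSO 6 h replicate 2 and 7 without celastrol 4 days replicate 1), and with each array centred on its median it was 8. The map of correlations shows these pairs and the relation of each factor to markers of neighbouring tissue.

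**Figure D3:**
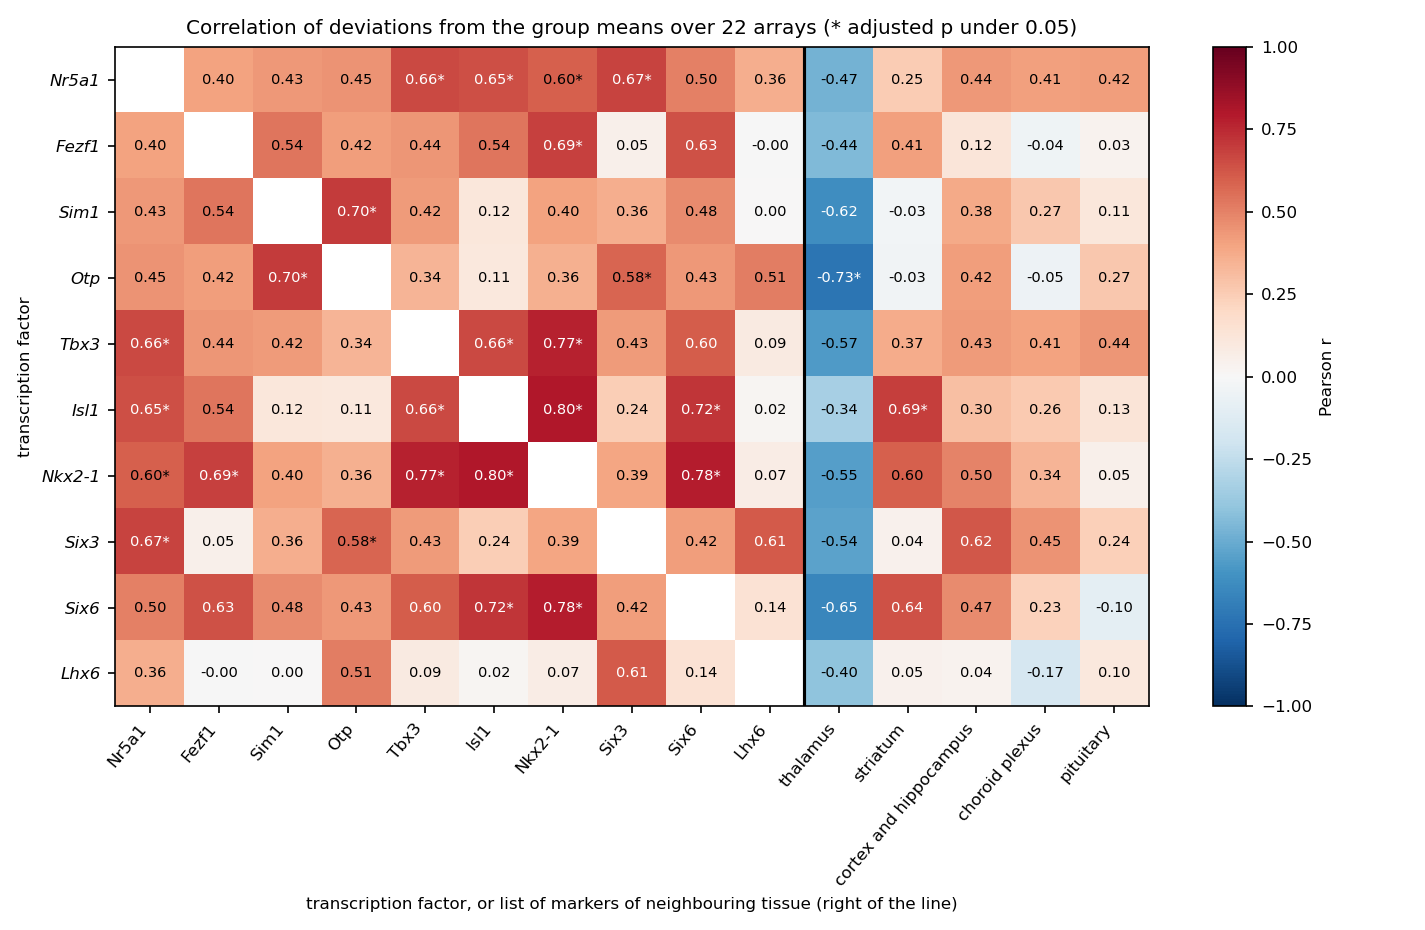
Pearson r between deviations from the group means over 22 arrays, for each pair of the 10 transcription factors (left of the line) and for each factor against the mean of marker lists of 5 neighbouring tissues (right of the line); red is positive, blue negative, and a star marks an adjusted p under 0.05 over the 45 pairs or the 50 relations. The highest values join Tbx3, Isl1 and Six6 to Nkx2-1, and the thalamus column is negative in all 10 cells.

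Nkx2-1 had the most partners, 5 of a possible 9, and the strongest. Isl1 and Nkx2-1 had r = 0.80 and rho = 0.80 (adjusted p = 0.00787 for r), Nkx2-1 and Six6 r = 0.78 and rho = 0.72 (adjusted p = 0.0218), and Tbx3 and Nkx2-1 r = 0.77 and rho = 0.69 (adjusted p = 0.00787). Isl1 and Six6 followed with r = 0.72 and rho = 0.75 (adjusted p = 0.0218). Fezf1 passed with Nkx2-1 only, at r = 0.69 and rho = 0.68 (adjusted p = 0.0277). Without the 2 arrays farthest from the median of the first gene, these 5 pairs kept r at 0.59 or above. This block joins the arcuate markers to Six6, a gene of the suprachiasmatic region, and to Fezf1 of the ventromedial nucleus.

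Sim1 and Otp, the paraventricular pair, had r = 0.70 and rho = 0.62 (permutation p = 0.00278, adjusted p = 0.0218), and r = 0.51 without 2 arrays. Neither passed with any arcuate marker. Sim1 passed with no other member and Otp also passed with Six3 (r = 0.58, rho = 0.61, adjusted p = 0.0266). Nr5a1 passed with Six3 (r = 0.67, adjusted p = 0.0459), Tbx3 (0.66), Isl1 (0.65) and Nkx2-1 (0.60), and Tbx3 passed with Isl1 (0.66).

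Pairs that passed lay both within and across the nuclei. Nr5a1 and Fezf1, both ventromedial, had r = 0.40 (adjusted p = 0.155), and Six3 and Six6, which are paralogous and both anterior, r = 0.42 (adjusted p = 0.135), so neither passed. Of the 6 pairs within a nucleus 4 passed, with a median r of 0.68, and of the 39 pairs across nuclei 8 passed, with a median r of 0.43. Each gene counted towards a single nucleus here, also Nkx2-1, which marks the neighbouring tuberal region as well. The sets of genes for each nucleus were drawn up with these values known, and the difference between 4 of 6 and 8 of 39 was not tested. Lhx6 passed with 0 of 9, and its highest r was 0.61, with Six3 (adjusted p = 0.0706).

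**Figure D4:**
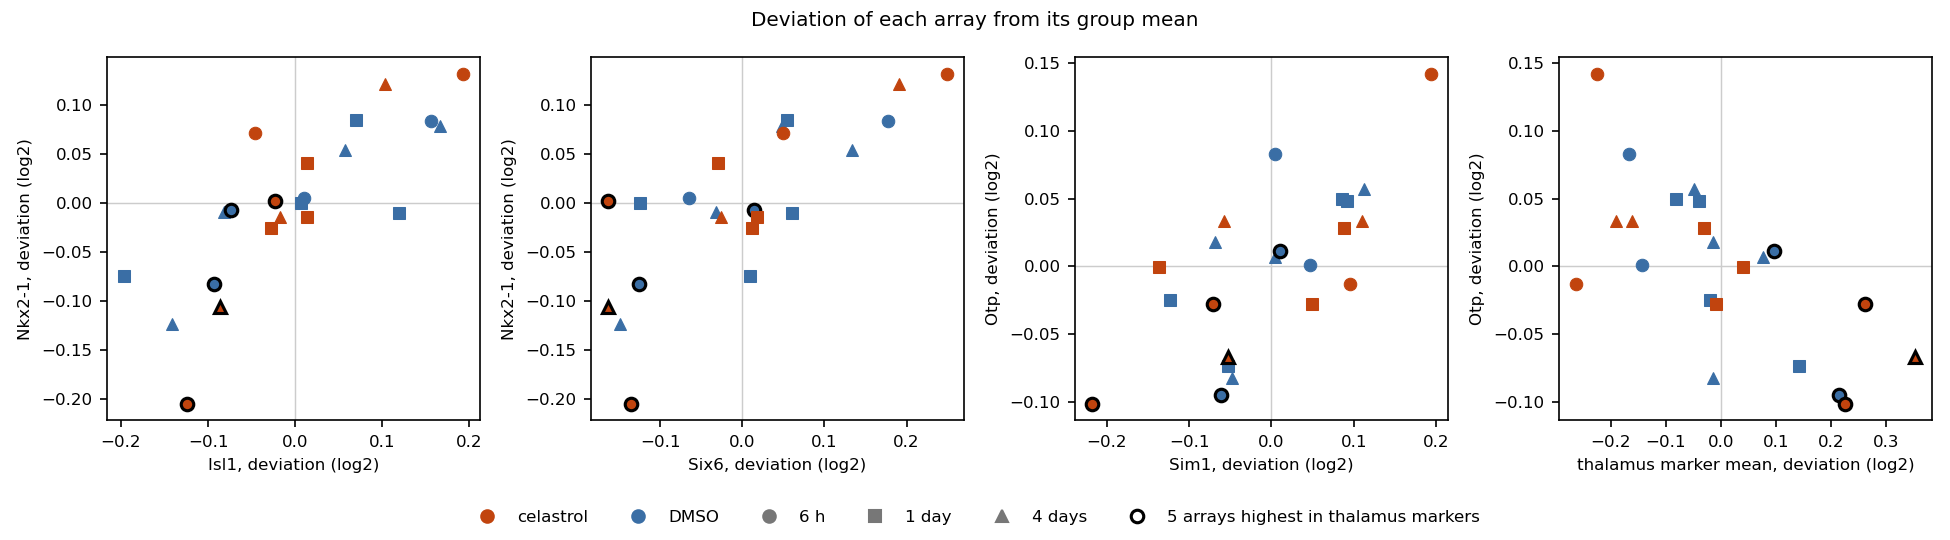
Deviation of each array from its group mean (both axes in log2 units) for Nkx2-1 against Isl1, Nkx2-1 against Six6, Otp against Sim1, and Otp against the mean of 9 thalamus markers; colours are celastrol and DMSO, shapes the times, and black rims the 5 arrays high in thalamus markers. Points rise together in the first 3 panels (r = 0.80, 0.78 and 0.70) and fall in the last, where the rimmed arrays lie to the right.

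Of the 10 members, Otp alone passed against the thalamus list. All 10 had a negative r with it over 22 arrays, between -0.34 for Isl1 and -0.73 for Otp, where 58.3% of the other 9872 tested genes had a negative r and 16.9% one at or below that of Isl1. The adjusted p of the other members lay between 0.111 and 0.334. The lists held 8 tested genes each for thalamus and striatum, 4 for pituitary, 3 for cortex and hippocampus and 2 for choroid plexus. Of 50 relations between a member and these lists of 5 neighbouring tissues, 2 passed. With 1 array left out the count was 0 to 18, the 18 without celastrol 4 days replicate 2, and with median centring it was 0. Both choroid plexus genes tested were above the array median in 3 arrays only, the least the filter allows. Leaving out 1 array can therefore empty that list, so the 18 is not read as a count of relations. The first of the 2 that passed was Otp with the thalamus list (r = -0.73, rho = -0.72, permutation p = 0.00058, adjusted p = 0.029, r = -0.65 without 2 arrays). The other was Isl1 with the striatum list (r = 0.69, rho = 0.73, adjusted p = 0.0365, r = 0.63 without 2 arrays), a list of 8 genes of which Drd2, Penk and others are also expressed in the hypothalamus. The part of either tissue in these relations was not tested.

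Without the 5 arrays high in thalamus markers, a choice made after seeing the data, 0 of the 45 pairs passed over the remaining 17 arrays, and the lowest adjusted p was 0.153. At an unadjusted permutation p under 0.05 there were 8 pairs, of which 7 belong to the 12. The 12 pairs all kept a positive r, between 0.31 and 0.81, and Isl1 with Nkx2-1 stood at r = 0.81, Nkx2-1 with Six6 at 0.71 and Fezf1 with Nkx2-1 at 0.69. Otp with Six3 was the weakest, at 0.31. Over all 45 pairs 33 had a positive r and the median r was 0.23, against 44 and 0.43 in 22 arrays. Otp and the thalamus list had r = -0.58 (adjusted p = 0.261), Isl1 and the striatum list r = 0.73 (adjusted p = 0.01), and 5 of the 10 members had a thalamus r above 0, up to 0.36 for Isl1. Under celastrol 0 of 8 tested thalamus markers passed at any time, and their list mean ran from 10.06 to 10.58 in celastrol 6 h arrays, against 10.14 to 10.52 in DMSO 6 h arrays.

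The genes most like each factor over the 22 arrays were taken by the highest r among all tested genes. For Nr5a1 they were Ghsr, the ghrelin receptor (r = 0.84), Ntn1, the axon guidance ligand netrin 1 (0.81), and Mcoln1 (0.80). For Sim1 they were Frs3 (0.83), Srf (0.80) and Mov10 (0.78), and for Otp, Ttll12 (0.79), Chpf (0.79) and Irs4, an insulin receptor substrate (0.79). For Isl1 they were Srd5a3 (0.89), Foxb1, a forkhead factor of the mammillary region (0.88), and Kdm4a (0.88), and for Nkx2-1, Nxph4 (0.86), Lhx1, another hypothalamic LIM homeodomain factor (0.85), and Ntsr1, a neurotensin receptor (0.85). For Tbx3 they were Gprc5b (0.85), Itgb5 (0.84) and Sf3a2 (0.84), and for Fezf1, Hspa2 (0.83), Rfx2 (0.79) and Amigo2 (0.78). For Six3 they were Tspyl5 (0.87), Dcp1b (0.86) and Ppm1f (0.86), for Six6, Rpp25l (0.89), Esyt3 (0.89) and Ampd2 (0.85), and for Lhx6, Naglu (0.89), Zfp768 (0.86) and Dlk2 (0.85). How many genes came so close differed between the factors: 125 of 9880 (1.27%) reached r = 0.7 with Six6 and 116 (1.17%) with Nkx2-1, but 25 (0.25%) with Sim1 and 20 (0.20%) with Fezf1. Over all pairs of tested genes 0.771% reached it. Nr5a1, Tbx3, Otp, Sim1 and Fezf1 lay below that share and the other members above. The genes named are the extremes of 9880 correlations and carry no test.

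Other hypothalamic transcription factors gave no call under celastrol either. Of 36 listed, 32 were on the array and 18 were tested, and 0 passed in any celastrol comparison. Nkx2-2, a homeodomain factor of the ventral hypothalamus and of oligodendrocyte precursors, had a change of -0.24 at 4 days (adjusted p = 0.147) and -0.11 on the mean of the 3 times (SE 0.03, adjusted p = 0.465). Rorb, a nuclear receptor of the suprachiasmatic nucleus, had a mean change of 0.06 (SE 0.02, adjusted p = 1.00). Of 16 tested peptide genes of the hypothalamus 0 passed, and the smallest p-values belonged to Oxt, oxytocin, with a mean change of -0.14 (SE 0.08), and Hcrt, the orexin precursor, with -0.10 (SE 0.06), both at adjusted p = 1.00.

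The lists of neighbouring tissue and other cell types also had 0 genes passing in each celastrol comparison. Among 8 thalamus markers the smallest p-values on the mean of the 3 times were those of Slc17a6, the vesicular glutamate transporter of thalamus and hypothalamus (0.05), and Tcf7l2 (-0.10). Among 8 striatum markers they were Pde10a (-0.07) and Penk (-0.05), among 3 of cortex and hippocampus Lamp5 (0.03) and Prox1 (-0.01), and among 4 of the pituitary Gh (-0.59, SE 0.45) and Ghrhr (0.04). Of the choroid plexus list only Kl (0.07) and Kcnj13 (-0.23) were tested, and the defining transcript Ttr was above its array's median on 0 of 22 arrays. Opalin (-0.18, SE 0.05, adjusted p = 0.487) and Mobp (0.06) led 8 oligodendrocyte genes, and Crym (0.08) and Col23a1 (0.06) led 6 of tanycytes and ependyma. For all of these but Opalin the adjusted p was 1.00. Of the 3 listed blood genes 0 were tested.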

How the data were processed

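RNA of mouse hypothalamus was hybridised to 22 whole-transcript Affymetrix arrays, and the authors deposited log2 intensities made with RMA, per the submitters' processing notes. RMA corrects background, normalizes arrays to a common distribution and summarizes probes. The medians of the deposited arrays still differed, between 8.58 and 8.66, so small shifts of a whole array can remain. No version of RMA is named. Values ran between 3.83 and 15.2, and the table held 0 columns of other series. Of 23492 probe sets, 20228 had 1 platform symbol, 1399 several and 1865 none. Where a gene had several, the probe set with the highest mean was kept.

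A model of the 6 group means was estimated from the 22 arrays together (limma 3.58.1, R 4.3.3; 16 residual degrees of freedom), and p-values were adjusted by Benjamini-Hochberg over 9880 genes. The filter counts arrays of both treatments. Tests were two-sided, and exact permutations exchanged labels within a time. Correlations and figures used numpy 2.4.6, scipy 1.17.1 and matplotlib 3.10.9 in Python 3.11.15. The number of arrays limits the precision. The sources used here name no scan date, so no batch was fitted. Arrays were not treated as paired by replicate number. Of 10 comparisons of time and treatment groups by number, 2 had a correlation of same-numbered deviations above 0.1 (range -0.24 to 0.41). Both were at 6 h (0.18 for replicate 2 and 0.41 for replicate 3), so the check does not settle pairing at that time. The steps were tested on simulated data.

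The members and lists were chosen with earlier results of these data known. The genes named were all 10 members in every comparison. Added were the 3 genes with the highest r for each member (predicted and non-coding genes left out). Each other list gave up to 4 genes called under celastrol. Otherwise it gave the 2 with the smallest p on the mean of the 3 times. Other peptide and marker genes, named to describe the tissue, were chosen after their values were seen.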

Additional observations from a re-analysis of the deposited data

Results flagged for a closer look

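In groups of 4 arrays, 2 levels stood far from the other 3 of their group (Dixon's 95% critical value). Nr5a1 was at 8.55 on DMSO 1 day replicate 2, where the others lay between 8.69 and 8.71. Six3 was at 8.56 on DMSO 6 h replicate 2, where the others lay between 8.84 and 8.89. On that array 9 of the 10 members were below their group mean, and the share of all genes was not counted. Chance sets apart about 1 in 20 groups, which is 2 of the 40 groups of 4 examined, so the number found equals the number chance gives.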

How the results depend on the processing

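Of the 10 members 0 passed under celastrol in any alternative, of which there were 33 at each time and 32 on the mean, and 0 passed in the comparisons between times. The alternatives changed the filter, the probe set rule, the normalization or the variance settings, or added a block for the replicate number. Others left out arrays, with 0 called without each array in turn. Each member had 1 probe set, so the probe set rule could not alter a member's own levels. The lowest adjusted p of a member was 0.5 for a celastrol change and 0.231 between DMSO times. Of 1306 member changes recomputed, 3 moved by an SD or more: without the 5 arrays high in thalamus markers, Fezf1 at 6 h came to 0.19 and Sim1 at 6 h to 0.03, and with array weights Sim1 at 1 day came to -0.11. The other sign was seen in 95, of which the largest was 0.09 in size to begin with. The median spread of the members stayed between 0.108 and 0.116 with single arrays left out.

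The correlations depended more on the arrays. The 12 pairs became 7 to 13 when 1 array was left out, 7 without DMSO 6 h replicate 2 and 7 without celastrol 4 days replicate 1, and 0 without the 5 arrays high in thalamus markers, where 17 arrays remained. Median centring gave 8, a further quantile normalization 11 and the replicate block 10. Tbx3 with Nkx2-1, Isl1 with Nkx2-1, Nkx2-1 with Six6 and Sim1 with Otp each passed in 30 of 31 settings, and Nr5a1 with Six3 in 13. The count of 2 relations with neighbouring tissue became 6 with no filter, 15 with a stricter filter, 0 with median centring, 1 with a further quantile normalization, 1 with the replicate block, 4 without the 2 arrays least like their group, and 1 without the 5 arrays. With single arrays left out it ran from 0 to 18, the 18 without celastrol 4 days replicate 2. The stricter filter asks for 11 arrays above the median and so leaves no choroid plexus gene, since Kl and Kcnj13 had 3. Leaving out 1 array can also empty that list. The 15 and the 18 can thus include relations with an empty list and are not read as results. The cause of the other shifts was not tested. Otp with the thalamus list passed in 23 of 31 settings and Isl1 with the striatum list in 14. Both counts include the stricter filter and the setting without celastrol 4 days replicate 2, where an empty list can enter the adjustment. The stricter filter drops Lhx6, which leaves 36 pairs.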
